A study of Mus musculus with 20 samples.

Results

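The comparison described here set the 6 tibialis anterior muscle libraries of mice that carried a transgenic system for unnatural amino acids (UAA) against the 4 libraries of mice that did not, 10 of the 20 libraries of the study. The carriers were 2 transgenic mice without a Dmd mutation, 2 trans/mdx mice that received no UAA and 2 trans/mdx mice given 50 mg of NAEK every 2 to 3 days for 4 weeks. The non-carriers were 2 wild-type mice and 2 mdx mice, whose Dmd gene has a nonsense mutation. The strain label was C57BL/6N for all carriers and for wild-type mice and C57BL/10 for mdx mice, so among mice with the mutation strain and transgene cannot be told apart. The untreated trans/mdx libraries bear the genotype label transgenic and were placed by their titles, which leaves them among the carriers either way. Trans/mdx mice came from crossing transgenic with mdx animals, and the transgenic line was made by injecting linear plasmids into fertilized eggs. Neither the promoter of the system, its number of founder lines nor the age and sex of the mice is given in the sources used here. Each of the 5 groups counted equally, so that a difference was the mean of 3 carrier groups minus the mean of 2 non-carrier groups.

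A UAA system pairs an engineered transfer RNA with a synthetase that charges it, so that the ribosome can read a chosen stop codon as an amino acid. NAEK is a lysine derivative with an azide group. Dystrophin, the product of Dmd, links the actin cytoskeleton of a muscle fibre through a membrane complex to the extracellular matrix, and mdx mice are a model of Duchenne muscular dystrophy. Fibrillar collagens, made mainly by fibroblasts and tendon cells, form the bulk of that matrix.

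The values were FPKM, a fragment count divided by transcript length and by library size. Low values implied 1970000 to 2530000 fragments per muscle library, so that 1 fragment on a transcript of 1 kb equalled 0.395 to 0.508 FPKM and levels near 1 FPKM rested on few fragments. Fast muscle genes were high in all 10 libraries, with Acta1 between 2214 and 5620 FPKM, while the atrial genes Nppa and Myl7 were listed at 0 in all of them and the cardiac myosin gene Myh6 reached 1.98 FPKM. Wild-type replicate 2 stood apart: its FPKM summed to 208611, against 136461 to 170265 in the other 9 muscle libraries, and 8530 of its genes reached 1 FPKM, against 6794 to 7002 in the others.

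Dmd itself did not separate the groups. It had 18.5 and 22.4 FPKM in transgenic, 30.8 and 17.5 in untreated trans/mdx and 30.9 and 28.1 in treated trans/mdx muscle, against 16.5 and 34.6 in wild-type and 33.7 and 22 in mdx muscle. Utrn, the gene of the dystrophin relative utrophin, lay between 2.4 and 4.02 FPKM in carriers and between 2.68 and 4.46 in non-carriers. The ranges of both genes overlapped, and their adjusted p-values were 0.977 and 0.99 with limma.

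No single gene passed the test between carriers and non-carriers. Of 9126 genes tested on log2(FPKM + 1) with limma, 0 had a Benjamini-Hochberg adjusted p under 0.05, and the smallest value was 0.0957, for Col1a1. At an unadjusted p under 0.05 stood 611 genes, 6.7% of those tested: 116 were higher in carriers (1.27%) and 495 lower (5.42%). All 6 carriers lay above all 4 non-carriers for 13 genes (0.142%) and below them for 96 (1.05%). The median log2 change over all genes was -0.11, and the excess on the lower side moved with wild-type replicate 2 and with scaling. Of the genes at unadjusted p under 0.05, 19% were higher as deposited, 50.1% after quantile normalization, 49% after median-of-ratios scaling and 50.4% without wild-type replicate 2. When the muscle contrast was taken from a fit of all 20 libraries, whose spread also comes from heart, 13 of 10085 genes (0.129%) passed at an adjusted p under 0.05, 4 higher (0.0397%) and 9 lower (0.0892%). Genes below 1 FPKM in all hearts, among them Igfn1, Ostn, Neto2 and Thbs4, vary little there on this scale. For them this fit can give a lower p without any further muscle values. Of the 13 genes, 9 were among the 20 leading genes described next, chosen from the same muscle values as those of lowest p, 10 higher and 10 lower.

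The genes of type I collagen were lower in every carrier than in any non-carrier. Col1a1, which encodes its alpha 1 chain (chromosome 11, 94936224 to 94953042, plus strand, mm10), had 5.79 and 6.09 FPKM in transgenic, 3.27 and 4.44 in untreated trans/mdx and 2.24 and 5.0 in treated trans/mdx muscle, against 26.1 and 45 in wild-type and 10.5 and 8.32 in mdx muscle. The highest values were those of wild-type mice, and mdx mice lay between them and the carriers. Col1a2, the gene of the alpha 2 chain (chromosome 6, 4504814 to 4541544, plus strand), had 7.62 and 7.7 FPKM in transgenic, 6.28 and 6.99 in untreated trans/mdx and 3.99 and 7.52 in treated trans/mdx muscle, against 25 and 41.8 in wild-type and 12.9 and 10.9 in mdx muscle. The order of the groups was that of Col1a1. The log2 change was -1.85 ± 0.26 (SE) for Col1a1 and -1.45 ± 0.24 for Col1a2, with adjusted p-values of 0.0957 and 0.207 in limma. Without wild-type replicate 2 the log2 changes were -1.66 and -1.28. In the fit of 20 libraries the adjusted p-values were 0.00425 and 0.0192, and among genes that averaged 5 FPKM or more, 2398 in all, they were 0.00856 and 0.0162. Col1a1 averaged 4.47 FPKM in carriers and 22.5 in non-carriers, so it passed that filter only through the group where it was higher.

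The region around the RefSeq start of Col1a2, 250 bases before it and 50 after, is shown because the type I collagen genes head the lower side. That start differs from the GENCODE start given above and lies downstream of it, inside the gene interval. The sequence is that of GRCm38.p6 at chr6:4505368-4505667, plus strand, with matches to CCAAT on either strand (ATTGG on the other) in capitals.
Col1a2: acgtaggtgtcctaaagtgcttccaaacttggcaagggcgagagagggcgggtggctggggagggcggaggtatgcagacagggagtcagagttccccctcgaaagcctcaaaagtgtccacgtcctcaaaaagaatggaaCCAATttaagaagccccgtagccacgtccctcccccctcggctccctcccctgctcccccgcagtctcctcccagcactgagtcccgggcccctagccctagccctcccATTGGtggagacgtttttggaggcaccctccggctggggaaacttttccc
The motif, named for the CCAAT box of many promoters, was found at positions 142 and 251 of the 300 bases. At least 1 match occurred in 37.4% of the 32851 start regions of this length in the same table, so the match is common.

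**Figure D1:**
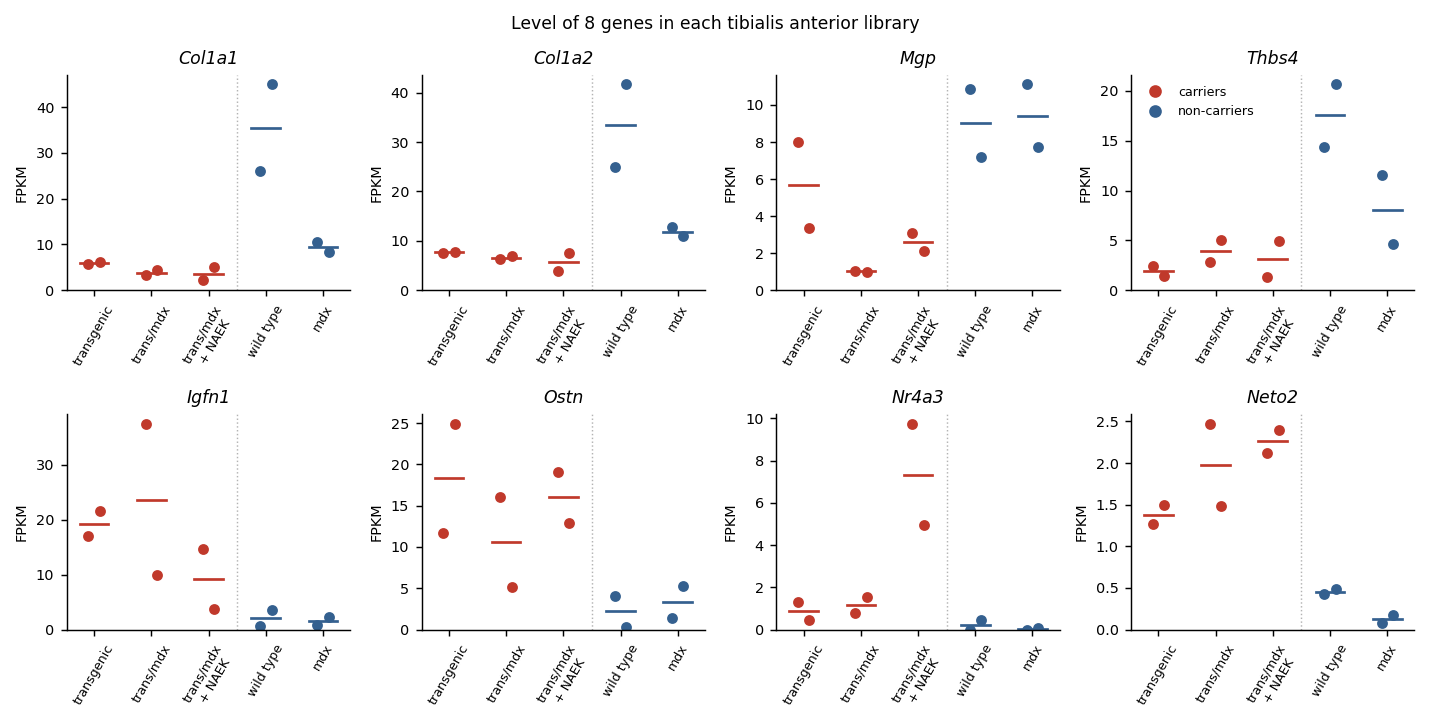
FPKM (linear axis) of 8 genes in each of the 10 muscle libraries, by group, carriers in red and non-carriers in blue; points are single mice and bars are means of 2. Col1a1 and Col1a2 lie between 2.24 and 7.7 FPKM in all carriers and at 8.32 or more in all non-carriers, while Neto2 lies at 1.26 FPKM or more in all carriers and at 0.487 or less in non-carriers.

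The lower collagens were part of a group of matrix genes. Of 26 genes of fibrillar collagens and matrix, 25 passed the filter on low values; 19 of these were lower at an unadjusted p under 0.05, against 5.42% of all genes, and 0 were higher. The median log2 change of the list was -0.78, against -0.11 for all genes, and all 25 members lay below 0. None passed after adjustment over all genes, and 3 (Col1a1, Col1a2 and Col6a1) lay lower without overlap between the groups, against 1.05% of all genes. Summed over the list, FPKM ranged from 91.5 to 157.6 in carriers, with a median of 149.6, against 206.1 to 501.0 in non-carriers, with a median of 247.4. The sum was highest in wild-type replicate 2 and lowest in treated trans/mdx replicate 1. Without wild-type replicate 2 the count was 10 of 24, beside 283 of all 8763 genes, and the median -0.51, against 0.01 for all genes. The list was chosen with earlier results of these data known, so its count is a description.

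Mgp encodes matrix Gla protein, an inhibitor of calcification. It had 8.02 and 3.35 FPKM in transgenic, 1.05 and 1.0 in untreated trans/mdx and 3.1 and 2.11 in treated trans/mdx muscle, against 10.9 and 7.22 in wild-type and 11.1 and 7.71 in mdx muscle. Its lowest values were those of untreated trans/mdx mice, and transgenic replicate 1 overlapped the non-carriers. The log2 change was -1.5 ± 0.27 (SE), adjusted p = 0.207 with limma. Col6a1, a chain of the microfibrillar type VI collagen that surrounds muscle fibres, ranged from 1.13 to 4.01 FPKM in carriers and from 4.6 to 11.4 in non-carriers, with a log2 change of -1.0 ± 0.29. The groups did not overlap, although the gap between the nearest libraries was small and the adjusted p was 0.52 in limma.

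Genes of tendon lay on the same side. Of 14 listed, 11 were tested and 7 were lower at an unadjusted p under 0.05, against 5.42% of all genes, with 0 higher and a median log2 change of -0.85; 2 of the 11, Fmod and Tnc, are also in the matrix list. Thbs4, a thrombospondin found at the junction of muscle and tendon, had 2.43 and 1.43 FPKM in transgenic, 2.81 and 5.07 in untreated trans/mdx and 1.32 and 4.91 in treated trans/mdx muscle, against 14.4 and 20.7 in wild-type and 11.5 and 4.61 in mdx muscle. Only mdx replicate 2 lay among the carriers. Its log2 change was -1.74 ± 0.34 (SE), adjusted p = 0.207 with limma and 0.029 in the fit of 20 libraries. Prelp, a leucine-rich proteoglycan that anchors matrix fibres, ranged from 2.04 to 6.77 FPKM in carriers against 4.34 to 11.6 in non-carriers. Kera, a proteoglycan of tendon and cornea, reached 1.35 FPKM in carriers and 9.61 in non-carriers, and Tnc, the gene of tenascin C, reached 0.82 and 2.22. Summed tendon FPKM ranged from 5.3 to 26.9 in carriers and from 12.7 to 95.1 in non-carriers, so mdx replicate 2 fell within the carriers. Without wild-type replicate 2 the count was 2 of 10, beside 283 of all 8763 genes, and the median of the list -0.76.

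Markers of fibroblasts and fibro-adipogenic progenitors, cells that make matrix in muscle, gave fewer members. Of 18 listed, 16 were tested, 3 were lower at an unadjusted p under 0.05, against 5.42% of all genes, and 0 higher, with a median log2 change of -0.34, or -0.20 without wild-type replicate 2; Dcn and Lum are also matrix genes. Pdgfrb, a growth factor receptor of mesenchymal cells and pericytes, ranged from 0.932 to 1.5 FPKM in carriers against 2.8 to 3.25 in non-carriers, with no overlap and a log2 change of -0.84 ± 0.23 (SE). Dcn, the gene of the collagen-binding decorin, ranged from 17.5 to 44.5 FPKM against 43.1 to 82.1 in non-carriers, and Lum, its relative lumican, from 0.706 to 2.37 against 1.95 to 6.98. Both overlapped at one edge. Summed marker FPKM ranged from 62.1 to 169.3 in carriers and from 147.1 to 289.5 in non-carriers, and 1 of the 18 markers was listed at 0 throughout. The part of these cells and of attached tendon in the collagen result was not tested, and in bulk muscle fewer such cells cannot be told apart from less RNA per cell.

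**Figure D2:**
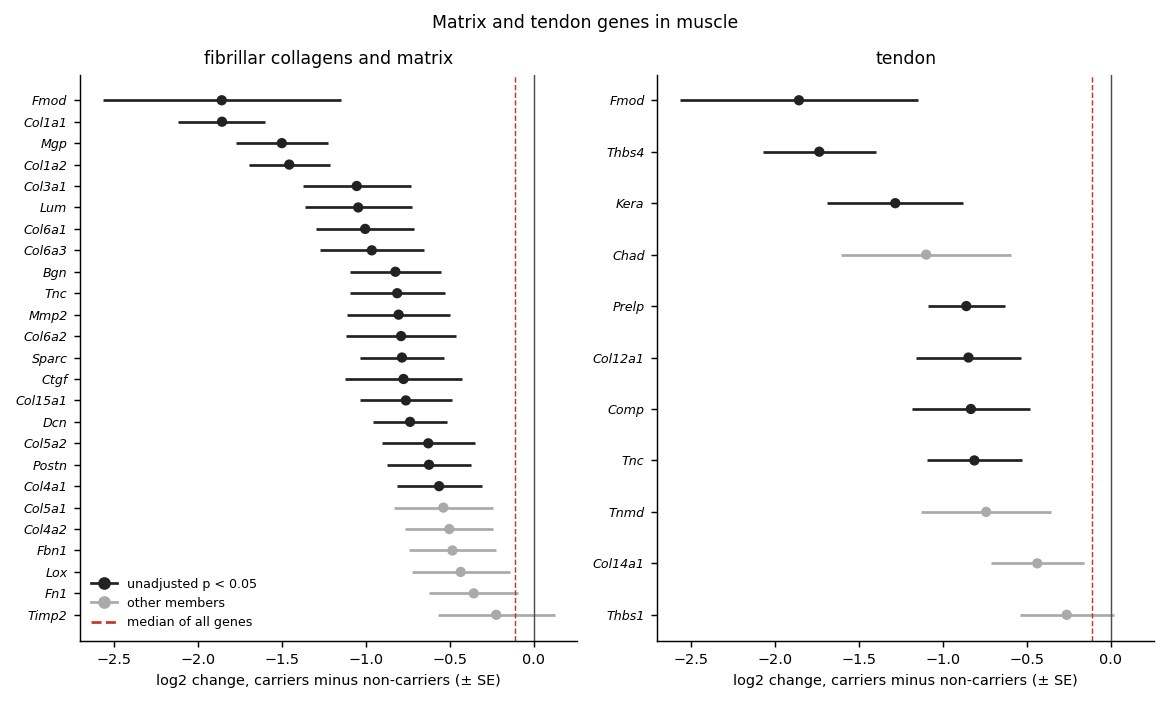
Log2 change in muscle, carriers minus non-carriers, with its SE (bars) for each tested member of the matrix list (left, 25 genes) and the tendon list (right, 11 genes); black marks members at an unadjusted p under 0.05 and the dashed line is the median of all genes (-0.11). All members lie left of 0, Fmod and Col1a1 farthest, and the bars of Fmod are the widest.

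Igfn1 and Ostn headed the higher side. Igfn1, which encodes an immunoglobulin-like and fibronectin domain protein of the skeletal muscle Z-disc (chromosome 1, 135953578 to 136006342, minus strand), had 17.0 and 21.6 FPKM in transgenic, 37.4 and 9.85 in untreated trans/mdx and 14.6 and 3.83 in treated trans/mdx muscle, against 0.739 and 3.56 in wild-type and 0.83 and 2.27 in mdx muscle. The groups did not overlap, but treated trans/mdx replicate 2 came close to wild-type replicate 2. The log2 change was 2.54 ± 0.44 (SE), the most positive of the 20 genes described here, with an adjusted p of 0.207 in limma and 0.0126 in the fit of 20 libraries. Ostn encodes osteocrin, also called musclin, a peptide secreted by muscle. It had 11.7 and 24.9 FPKM in transgenic, 16.1 and 5.11 in untreated trans/mdx and 19.1 and 12.9 in treated trans/mdx muscle, against 4.08 and 0.304 in wild-type and 1.38 and 5.22 in mdx muscle. Untreated trans/mdx replicate 2 lay just below the highest mdx library, and the other 5 carriers lay above all non-carriers. The log2 change was 2.21 ± 0.45 (SE), adjusted p = 0.216 with limma and 0.0223 in the fit of 20 libraries.

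The start region of Igfn1 is shown for the gene with the most positive change among these 20. It is the RefSeq sequence of GRCm38.p6 at chr1:136006293-136006592, minus strand, 5′ to 3′, with the E-box CAGCTG, which reads the same on both strands, in capitals.
Igfn1: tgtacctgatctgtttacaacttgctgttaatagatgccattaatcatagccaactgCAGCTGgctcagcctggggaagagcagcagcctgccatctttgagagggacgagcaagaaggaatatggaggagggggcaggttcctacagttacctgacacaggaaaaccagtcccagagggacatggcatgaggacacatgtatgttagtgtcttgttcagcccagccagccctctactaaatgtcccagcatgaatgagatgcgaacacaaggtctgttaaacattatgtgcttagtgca
E-boxes of this form are bound by myogenic factors such as MyoD. The 1 match begins at position 58, and 16.3% of the 32851 start regions hold at least 1.

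Neto2, an auxiliary subunit of kainate receptors, did not overlap between the groups either. It had 1.26 and 1.5 FPKM in transgenic, 2.47 and 1.49 in untreated trans/mdx and 2.12 and 2.4 in treated trans/mdx muscle, against 0.427 and 0.487 in wild-type and 0.0791 and 0.171 in mdx muscle. All carriers were above 1 FPKM and all non-carriers below 0.5 FPKM, a range of few fragments. Neto2 thus passed the filter on low values only through the carriers. The log2 change was 1.15 ± 0.24 (SE), adjusted p = 0.272 with limma and 0.0192 in the fit of 20 libraries. Med24, a subunit of the Mediator complex of transcription, ranged from 4.54 to 13.6 FPKM in carriers against 1.07 to 4.32 in non-carriers, and Pold3, a subunit of DNA polymerase delta, from 1.02 to 2.36 against 0.262 to 0.446. Neither overlapped between the groups.

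Some of the higher genes were highest in the treated trans/mdx mice. Nr4a3, an orphan nuclear receptor that responds early to exercise, had 1.32 and 0.47 FPKM in transgenic, 0.803 and 1.53 in untreated trans/mdx and 9.73 and 4.94 in treated trans/mdx muscle, against 0 and 0.464 in wild-type and 0 and 0.095 in mdx muscle. Every carrier lay above the highest non-carrier, transgenic replicate 2 by the least. Its log2 change was 1.49 ± 0.29 (SE), adjusted p = 0.207 with limma. Ddit4, an inhibitor of mTORC1 signalling, had 0.647 and 0.317 FPKM in transgenic, 0.887 and 1.13 in untreated trans/mdx and 4.39 and 3.87 in treated trans/mdx muscle, against 0 and 0.502 in wild-type and 0 in both mdx libraries. Usf2, an E-box binding factor, had 17.1 and 17.5 FPKM in treated trans/mdx muscle and 7.29 to 9.88 in the other carriers, against 4.24 to 9.0 in non-carriers. For these genes a comparison of all carriers thus included a group that also received NAEK. Nmrk2, a nicotinamide riboside kinase of the NAD pathway in muscle, ranged from 12 to 35.1 FPKM in carriers against 1.95 to 18.2 in non-carriers, with both treated libraries above all others. The gene 1110008P14Rik ranged from 2.65 to 8.44 FPKM in carriers, against 0 to 0.922 in 3 non-carriers and 8.3 in wild-type replicate 2.

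The other genes at the head of the lower side belonged to none of the groups above. Polr2i, a subunit of RNA polymerase II, ranged from 1.36 to 4.17 FPKM in carriers against 3.75 to 9.43 in non-carriers. Ppfia1, the gene of the scaffold protein liprin alpha 1, ranged from 2.18 to 3.79 FPKM against 5.85 to 9.32 in non-carriers. Hmgn1, a nucleosome-binding protein, ranged from 0.664 to 1.98 FPKM against 3.37 to 5.09, and Ccdc28b, a protein of cilium assembly, from 0 to 3.63 against 5.52 to 12 in non-carriers. Ppfia1, Hmgn1 and Ccdc28b did not overlap between the groups, and their log2 changes were -1.15, -1.27 and -1.96, with adjusted p-values of 0.216, 0.216 and 0.207 in limma. Hist1h2ab was listed at 0 in all 6 carriers, against 1.38 and 1.15 FPKM in wild-type and 1.29 and 2.81 in mdx muscle. It passed the filter on low values only through the non-carriers. Hist1h4i was listed at 0 in all carriers but treated trans/mdx replicate 1, at 1.2 FPKM, against 3.8 and 3.17 in wild-type and 1.18 and 1.29 in mdx muscle. These clustered histone genes are near-identical copies with short messages, and how fragments were shared among them is not given in the sources used here, so the values of single copies are uncertain. Of 11 tested members of the histone list, 3 (Hist1h4i, Hist1h2bn and Hist1h3e) were lower at an unadjusted p under 0.05, against 5.42% of all genes, and 0 higher, and the median log2 change was -0.69, or -0.175 without wild-type replicate 2. Summed FPKM of the list ranged from 47.4 to 85.7 in carriers and from 75.9 to 151.0 in non-carriers.

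Messages of the mitochondrial genome took a larger share of the total in every carrier. Their share of the FPKM sum was 25.4 and 26.6% in transgenic, 25.7 and 31.3% in untreated trans/mdx and 27.5 and 28.3% in treated trans/mdx muscle, against 23.8 and 23.2% in wild-type and 25.2 and 21.9% in mdx muscle. It averaged 27.5 ± 2.17% in carriers (SD, n = 6) and 23.5 ± 1.35% in non-carriers (SD, n = 4). Over the 210 ways to choose 6 of 10 libraries, a two-sided exact permutation test gave p = 0.00952, where 0.00476 is the smallest it can give, and 0.0381 after adjustment over 4 library measures. The nearest libraries, transgenic replicate 1 and mdx replicate 1, were close. Of the 13 listed mitochondrial messages, mt-Atp6 stood at 0.0016 FPKM or less in every muscle library, so the share in effect left it out. Whether that value is a failed estimate was not tested. As a share without Lars2, a gene that alone took 7.33 to 19.2% of the muscle sums, the difference was 5.05 percentage points, with an exact permutation p of 0.00476; this alternative was chosen after seeing the data. The 3 other measures gave adjusted exact p-values of 0.83 for the FPKM sum, 0.43 for genes at 1 FPKM or more and 0.83 for the share of Lars2.

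A share depends on all other genes, and all 12 tested mitochondrial genes overlapped between the groups. Of these, 1 (mt-Nd1, a subunit of complex I) was higher at an unadjusted p under 0.05 and 0 were lower, against 1.27% and 5.42% of all genes, with a median log2 change of 0.14. The count was 6 after median-of-ratios scaling and 4 without wild-type replicate 2, beside 328 of all 9126 and 288 of all 8763 genes. With the treated mice left out 0 were higher and 1 lower, beside 124 and 483 of all 9126 genes. mt-Nd1 ranged from 9958 to 12794 FPKM in carriers and from 7462 to 11735 in non-carriers. The log2 changes of other members were 0.28 for mt-Nd2, 0.19 for mt-Nd5 and -0.36 for mt-Nd3, with adjusted p-values of 0.754, 0.828 and 0.839 in limma. Quantile normalization gives equal ranks equal values, so a gene of the same top rank in all libraries comes out at 0 whatever its level. With it the value of mt-Nd1 was 0 and that of mt-Nd2 -0.01, which therefore cannot show whether their levels differ. In that setting 3 of the 12 genes were higher at an unadjusted p under 0.05 and 0 lower, beside 335 and 333 of all 9126 genes. Nuclear genes of oxidative phosphorylation, which supply the other subunits of the respiratory chain, had 9 of 75 lower at an unadjusted p under 0.05, against 5.42% of all genes, 0 higher and a median of -0.23, against -0.11. Cox8b, Cox7a1 and Cox6a2, muscle forms of cytochrome oxidase subunits, had log2 changes of -0.65, -0.54 and -0.60, and Atp5g2, a ring subunit of ATP synthase, -0.73; the adjusted p-values were 0.563, 0.57, 0.57 and 0.563 in limma. Without wild-type replicate 2, which had 6698 FPKM summed over this list against 3193 to 4250 in the other 9 libraries, 4 were lower and 4 higher. Fast fibre genes gave 4 of 16 lower, against 5.42% of all genes, among them Casq1, the gene of the calcium store protein calsequestrin 1, at 330 to 521 FPKM in carriers against 479 to 916 in non-carriers, and 1 of 16 without that library. Over all genes 283 of 8763 were lower and 288 higher without wild-type replicate 2.

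**Figure D3:**
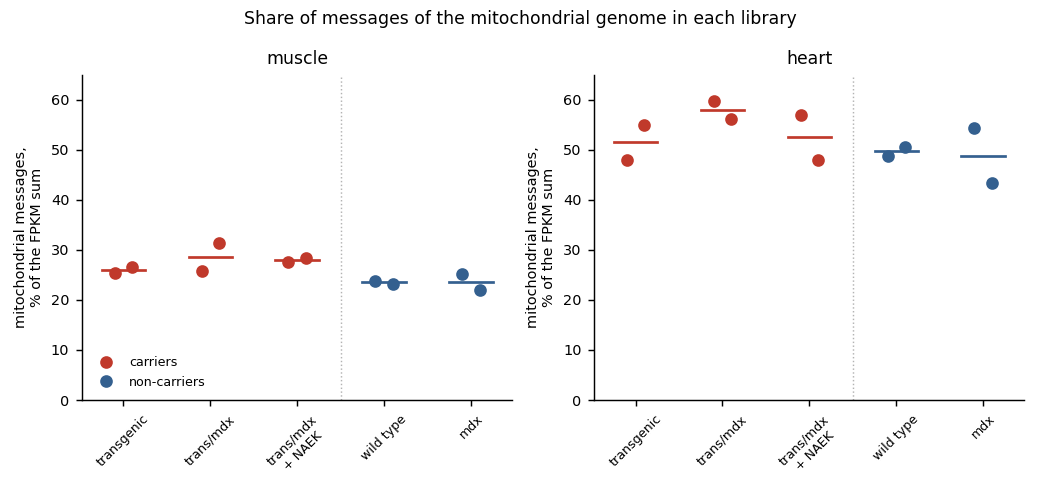
Messages of the mitochondrial genome as a percentage of the FPKM sum in each library, in muscle (left) and heart (right), by group, carriers in red and non-carriers in blue; points are single mice and bars are means of 2. In muscle carriers lie between 25.4 and 31.3% and non-carriers between 21.9 and 25.2%, while in heart the ranges overlap.

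Lists near to the working of the transgene are given beside the 5.42% of all genes that were lower and the 1.27% that were higher. Of 20 aminoacyl-tRNA synthetase genes, the endogenous relatives of the transgenic synthetase, 0 stood at an unadjusted p under 0.05, and their median log2 change was -0.10. Lars2, the gene of the mitochondrial leucyl-tRNA synthetase, is not in that list, and its share of the sums is given above. Of 18 tested genes of nonsense-mediated decay and termination, 1 was lower, with a median of -0.13, and of 18 heat shock genes 0 were. In the integrated stress response 1 of 12 was higher, Ddit4, and 1 lower, Ddit3, the gene of the transcription factor CHOP. Ddit3 ranged from 0 to 1.61 FPKM in 5 carriers and stood at 6.71 in treated trans/mdx replicate 1, against 2.91 to 5.89 in non-carriers. The proteasome list gave 4 of 31 lower, against 5.42% of all genes, and a median of -0.12, at the median of all genes. Without wild-type replicate 2 this list gave 2 lower and 3 higher, beside 283 and 288 of all 8763 genes. After quantile normalization it gave 2 lower and 1 higher, beside 333 and 335 of 9126. Psma3, the gene of a core subunit and the list's member of lowest p, had 7.54 to 13.2 FPKM in carriers against 13.6 to 22.9 in non-carriers, with no overlap.

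Members of the hormone and early response lists stood on the higher side. Of 15 tested glucocorticoid-responsive and metallothionein genes, 3 were higher at an unadjusted p under 0.05, against 1.27% of all genes, and 0 lower, with a median log2 change of 0.28. Fbxo32, the ubiquitin ligase atrogin-1, ranged from 14.4 to 24.6 FPKM in carriers against 9.01 to 14.8 in non-carriers. Sgk1, a hormone-induced kinase, ranged from 26.5 to 67.5 FPKM in carriers, against 17.3 to 25 in 3 non-carriers and 51.1 in wild-type replicate 2. Pdk4, an inhibitor of pyruvate dehydrogenase, ranged from 18.9 to 65.9 FPKM against 13.6 to 25.4, and its 2 highest values were those of treated mice. All 3 overlapped between the groups. Of 16 immediate early genes 2 were higher, Nr4a3 and Fos, with a median of 0.26; Fos, a subunit of AP-1, ranged from 3.24 to 15.6 FPKM against 0.89 to 6.73 in non-carriers. With the treated mice left out, the counts were 1 of 15 and 1 of 16, beside 124 of all 9126 genes. The medians were then 0.08 and 0.08, against -0.13 for all genes. The related Egr1 and Atf3 had log2 changes of 0.50 and 0.79 and adjusted p-values of 0.754 each in limma. Among 17 clock genes 3 were lower, against 5.42% of all genes: Per2, Per3 and Cry1, all repressors of the clock. Per2 ranged from 0.168 to 1.47 FPKM in carriers against 1.25 to 2.74 in non-carriers. After quantile normalization 2 of the 17 were lower and 3 higher, beside 333 and 335 of all 9126 genes. The median of the list was then 0.07, against -0.04 as deposited. The clock activator Arntl had a log2 change of 0.54 and an adjusted p of 0.754 in limma. The hour at which the mice were killed is not given in the sources used here.

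Genes of denervation and the neuromuscular junction gave 3 of 14 lower, against 5.42% of all genes, with a median of -0.31, or -0.14 without wild-type replicate 2. Ache, the acetylcholinesterase gene, had 1.8 and 2.27 FPKM in transgenic, 3.09 and 3.17 in untreated trans/mdx and 3.3 and 3.67 in treated trans/mdx muscle, against 4.14 and 8.47 in wild-type and 4.7 and 5.55 in mdx muscle. Chrna1, the alpha subunit of the muscle acetylcholine receptor, ranged from 0.404 to 0.531 FPKM in carriers, levels of few fragments, against 0.613 to 1.65 in non-carriers. Both were lower in all carriers than in any non-carrier, as were 1.05% of all genes. Etv5, a factor of synaptic gene expression, overlapped.

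Markers of other cell types are given beside the 6.7% of all genes at an unadjusted p under 0.05. Macrophage genes gave 0 of 10 tested at an unadjusted p under 0.05, adipocyte genes 0 of 13, Schwann cell genes 0 of 5 and endothelial genes 1 of 18. The adipocyte count moved with the setting. Without wild-type replicate 2, 4 of 13 were higher, beside 288 of all 8763 genes, with a median of 0.54 against 0.01. With the treated mice left out, 4 of 13 were higher, beside 124 of 9126, with a median of 0.56 against -0.13. After quantile normalization and median-of-ratios scaling 3 were higher, beside 335 and 328 of 9126. Summed macrophage FPKM ranged from 6.99 to 28.2 in carriers and from 4.72 to 38.4 in non-carriers. The mast cell proteases Mcpt4 and Tpsb2 were the 2 higher genes of 5 tested in the neutrophil and mast cell list, at 0 to 2.08 and 0 to 2.15 FPKM in carriers against 0 to 0.47 in non-carriers for both, levels of few fragments. The median of that list was -1.23, on the opposite side from these genes, and the summed FPKM ranged from 1.34 to 14.7 in carriers and from 0 to 119.99 in non-carriers, with the highest in mdx replicate 2. No gene of the T and B cell list or of the skin list passed the filter on low values. Erythrocyte genes gave 2 of 6 lower, against 5.42% of all genes, with summed FPKM of 43.2 to 70.8 in carriers and 36.8 to 158.9 in non-carriers.

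The carrier effect was also taken on each Dmd background, as transgenic minus wild type and as trans/mdx minus mdx, which share no libraries. Only the second included mice given NAEK and compared different strain labels. In the difference between backgrounds, mutation, NAEK and strain therefore cannot be told apart. Without the mutation 0 genes passed after adjustment in limma, and at an unadjusted p under 0.05 stood 904 (9.91%), 67 higher (0.734%) and 837 lower (9.17%). With the mutation 0 passed, and of 559 at an unadjusted p under 0.05 (6.13%) 344 stood higher (3.77%) and 215 lower (2.36%). The median log2 change was -0.33 without the mutation and 0.09 with it. After quantile normalization 49.5% of the genes at unadjusted p under 0.05 were higher without the mutation and 49% with it. Without wild-type replicate 2 the comparison of transgenic with wild-type muscle had 210 higher and 331 lower, and a median of -0.07. The difference of the effects gave 0 genes at an adjusted p under 0.05 and 836 at an unadjusted one (9.16%), 744 of them with a more positive effect on the mutant background (8.15%) and 92 with a more negative one (1.01%). The 744 and 92 became 274 and 282 after quantile normalization, 268 and 281 after median-of-ratios scaling and 399 and 183 without wild-type replicate 2. The smallest adjusted p was 0.198, so no gene was called different between the backgrounds.

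Both backgrounds had the collagens on the lower side. The log2 change of Col1a1 was -2.35 ± 0.40 (SE) without the mutation and -1.17 ± 0.35 with it, and that of Col1a2 was -1.95 ± 0.37 and -0.86 ± 0.32. The differences of 1.18 ± 0.53 and 1.08 ± 0.49 had adjusted p-values of 0.536 and 0.54 in limma. Of the 25 matrix genes 23 had a negative log2 change on both backgrounds. At an unadjusted p under 0.05, 11 were lower without the mutation, against 9.17% of all genes, and 10 with it, against 2.36%, and the medians were -0.81 and -0.51. The counts were 4 and 12 of 24 when wild-type replicate 2 was left out, beside 331 and 215 of all 8763 genes. For tendon genes the counts were 8 of 11 and 1 of 11, beside the same shares of all genes, and the medians -1.35 and -0.35. The tendon counts were 4 and 0 of 10 when wild-type replicate 2 was left out, beside 331 and 215 of all 8763 genes. For Mgp the more negative value was that with the mutation, at -0.66 ± 0.42 without the mutation and -1.94 ± 0.37 with it, and the adjusted p of the difference was 0.536 in limma. Nuclear genes of oxidative phosphorylation had 33 of 75 lower and 0 higher without the mutation but 0 lower and 3 higher with it, beside shares of 9.17% lower and 3.77% higher over all genes, and medians of -0.67 and 0.17, against -0.33 and 0.09 for all genes. The 33 became 9 lower and 1 higher without wild-type replicate 2, and after quantile normalization 7 lower and 1 higher. Over all genes these settings gave 331 lower and 210 higher of 8763, and 276 lower and 270 higher of 9126. The difference for Cox8b was 1.49 ± 0.42, with an adjusted p of 0.484 in limma.

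Genes that stood at an unadjusted p under 0.05 on both backgrounds were few. Of the 9126 genes, 35 were lower in both, 4.18% of the 837 lower without the mutation and 16.3% of the 215 lower with it. A total of 4 were higher in both, 5.97% of 67 and 1.16% of 344. Over all genes 2.36% were lower with the mutation and 9.17% without it, and 3.77% and 0.734% were higher. Whether more genes were shared than unrelated effects would give was not tested. The 4 higher in both were Igfn1, Med24, Ostn and Pold3. Igfn1 had log2 changes of 2.84 ± 0.68 (SE) without the mutation and 2.44 ± 0.59 with it, and Ostn 2.82 ± 0.69 and 1.77 ± 0.60. A further 45 of the 9126 genes were lower without the mutation and higher with it, more than the 35 lower in both, and 1 the reverse. These counts are as deposited, where the excess of lower genes without the mutation moved with scaling and with wild-type replicate 2. They were not taken in another setting. All 20 leading genes of the comparison of all carriers had the same sign on both backgrounds, which the choice of these genes favours.

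**Figure D4:**
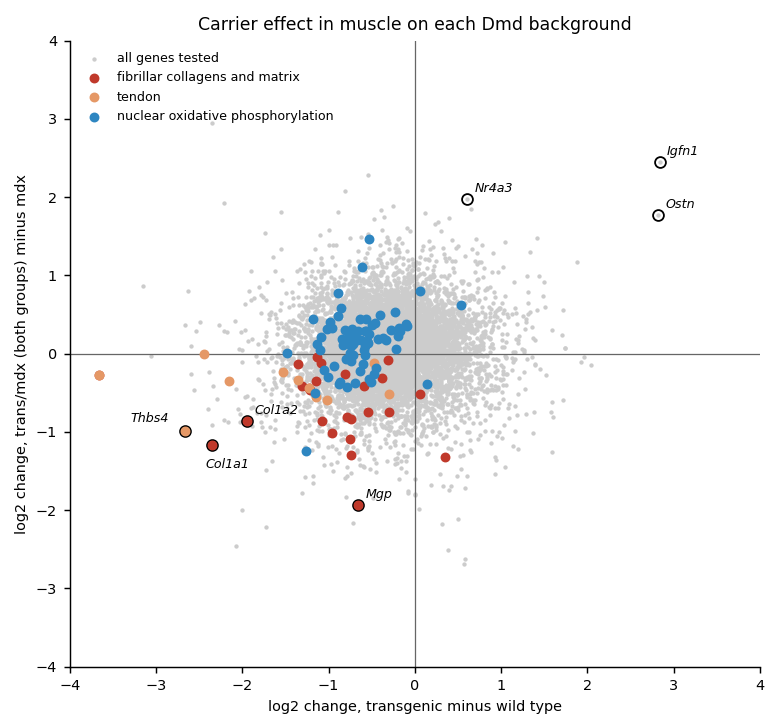
Log2 change of each of the 9126 genes, transgenic minus wild type (x axis) against both trans/mdx groups minus mdx (y axis), with the matrix, tendon and nuclear oxidative phosphorylation lists in colour and 7 named genes ringed. Col1a1, Col1a2, Thbs4 and Mgp lie at lower left and Igfn1, Ostn and Nr4a3 at upper right, while the cloud of all genes is centred at -0.33 on the x axis and 0.09 on the y axis.

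The hearts of the same groups gave no called gene, and the difference between tissues passed the test for none. In heart 0 of 8269 genes passed at an adjusted p under 0.05 in limma, and 365 (4.41%) stood at an unadjusted one, 46 higher (0.556%) and 319 lower (3.86%). For muscle minus heart 0 of 10085 genes passed, 432 stood at an unadjusted p under 0.05 (4.28%), 233 more positive in muscle (2.31%) and 199 more negative (1.97%), and the smallest adjusted p was 0.715. The balance moved with single libraries. The median of this difference was 0.008, but -0.11 without muscle wild-type replicate 1 and 0.13 without muscle wild-type replicate 2. Col1a1 was at 0.982 to 1.62 FPKM in the hearts of carriers and at 1.65 to 2.4 in those of non-carriers. The nearest libraries were close, and Col1a1 had an unadjusted p of 0.173 with limma on the hearts alone. Its log2 change in heart was -0.37 ± 0.24 (SE, fit of 20 libraries), and muscle minus heart was -1.49 ± 0.34, with an adjusted p of 0.734 in limma. Of 21 matrix genes tested in heart 2 were lower at an unadjusted p under 0.05, and the list median was -0.37, against -0.13 for all genes. Mgp, at 12.8 to 40.2 FPKM in carrier and 25.7 to 42.2 in non-carrier hearts, had a log2 change of -0.46 ± 0.29 in the same fit.

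Of the genes that led the higher side in muscle, Igfn1 and Ostn had no heart level from which a change could be read. Igfn1 reached 0.0358 FPKM in carrier and 0.0854 in non-carrier hearts, and Ostn was listed at 0 in all 10. A listed 0 can be a failed estimate in these hearts, since mt-Nd1 was listed at 0 in 9 of the 10 and at 17220 FPKM in the other, treated trans/mdx replicate 1. Usf2 was at 6.21 to 15.0 FPKM in carrier and at 5.75 to 11.1 in non-carrier hearts. Nr4a3 ranged from 0 to 2.57 FPKM in carrier and from 0.154 to 0.254 in non-carrier hearts, with the 2 highest values again in treated mice. Egr1 differed in direction, with a log2 change of 0.50 in muscle and of -1.0 ± 0.25 (SE) in heart, and the adjusted p of the difference was 0.752 in limma. The mitochondrial share was 48.0 to 59.8% in carrier and 43.3 to 54.4% in non-carrier hearts, a difference of 4.73 percentage points with an exact permutation p of 0.171. The mt-Nd1 value of the 1 heart that listed it made up 12% of its FPKM sum, and with that gene left out of all hearts, an alternative chosen after seeing the data, the difference was 3.75 percentage points with an exact permutation p of 0.252. In muscle, where mt-Nd1 was measured in all libraries, the same alternative gave 3.03 percentage points and an exact permutation p of 0.0143.

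**Figure D5:**
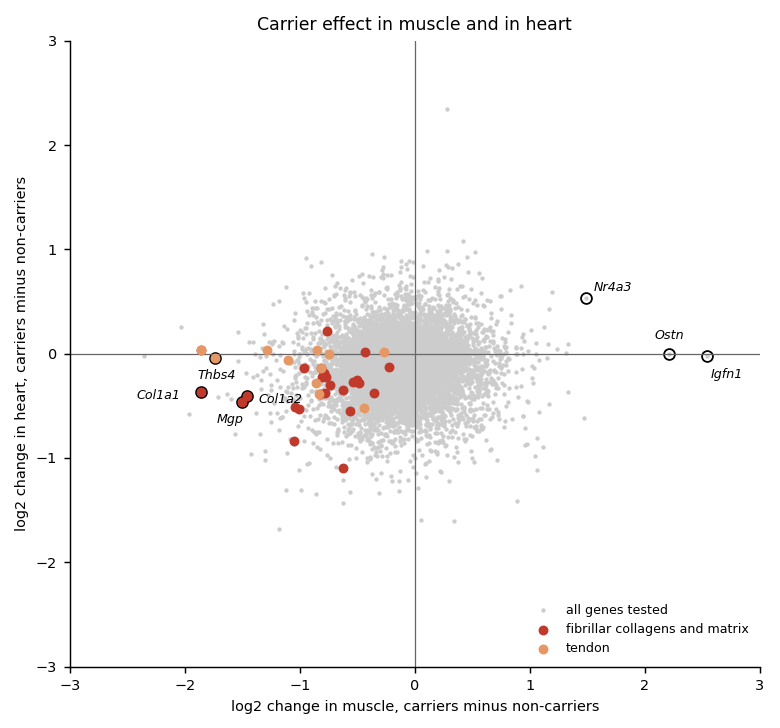
Log2 change in muscle (x axis) against that in heart (y axis), carriers minus non-carriers, from the fit of 20 libraries, for the 9126 genes tested in muscle; matrix and tendon genes are coloured and 7 genes ringed. Col1a1 lies at -1.85 in muscle and -0.37 in heart, and Igfn1 and Ostn lie far right at about 0 in heart.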

How the data were processed

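The authors deposited FPKM of 22564 genes in 20 libraries, 10 of them from tibialis anterior muscle. Total RNA was freed of ribosomal RNA before strand-specific library construction, per the labels' protocols. The submitters' processing notes list mm10, Cuffdiff, Cufflinks, HISAT2 (2.0.4) and cutadapt (1.9.3). Counts were not used here. Sums of FPKM differ between libraries and were left so; exact zeros can be failed estimates. Depth was read from the steps of low values in genes with 1 transcript of at least 3000 bases.

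The filter kept a gene when 2 or more of the libraries fitted reached 1 FPKM. A gene could pass through its higher group alone, as Hist1h2ab, Neto2, Pold3, Nr4a3, Ddit4, Mcpt4 and Tpsb2 did. Their non-overlap and place in list counts are descriptions. Kept genes were tested on log2(FPKM + 1), a scale that understates changes of low genes, with limma 3.58.1 (R 4.3.3): a coefficient per group, an intensity trend, 5 residual degrees of freedom, two-sided, Benjamini-Hochberg at 0.05 over all genes. Tissue differences used all 20 libraries with 10 residual degrees of freedom. Whether hearts and muscles came from the same mice was not settled here, and no pairing between the tissues was modelled. The fit was tested on simulated data. Named genes were the 10 with the smallest p per direction, up to 4 per list, Dmd and Utrn. The comparison, its members and 40 gene lists were chosen with earlier results of these data known. Within a tissue each library is 1 mouse; coordinates are GENCODE genes of mm10. Alternatives are given at the end.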

Additional observations from a re-analysis of the deposited data

Results flagged for a closer look

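In 124 sets of values, those of 6 carriers or 4 non-carriers for each of 58 genes and 4 library measures, the gap of an extreme library to its neighbour was set against the range of the group, and 10 sets exceeded the 95% limit of Dixon's test, where chance gives about 1 in 20. Wild-type replicate 2 was the high library of the non-carriers with 8530 genes at 1 FPKM or more, with 0.502 FPKM for Ddit4, 8.3 FPKM for 1110008P14Rik and 0.4662 FPKM for Mcpt4. Mdx replicate 2 was high for Hist1h2ab at 2.81 FPKM, and mdx replicate 1 for Tpsb2 at 0.474 FPKM. Among carriers, transgenic replicate 1 was high for Mgp at 8.02 FPKM and for Hist1h3e at 0.736 FPKM, and treated trans/mdx replicate 1 for Hist1h4i at 1.2 FPKM and for Ddit3 at 6.71 FPKM. In 5 of the 9 gene sets the other libraries of the group were all listed at 0.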

How the results depend on the processing

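The filter at an average of 5 FPKM took the mean over all libraries, so a gene could pass through its higher group only, as Col1a1 and Igfn1 did. The count of genes called between carriers and non-carriers was 0 as reported. It was 3 among genes averaging 5 FPKM or more, 13 with all 20 libraries in the fit and 0 to 3 when 1 library was left out, the 3 without transgenic replicate 2. Without the Dmd mutation the count of 0 became 2 among genes averaging 5 FPKM or more, 7 with all 20 libraries, 2 with the cross libraries placed by their genotype label and 0 to 1 with 1 library left out, the 1 without transgenic replicate 2. With the mutation it became 4 with no filter on low values, 1 with a pseudocount of 0.1 FPKM, 8 with all 20 libraries and 0 to 3 with 1 library left out, the 3 without mdx replicate 1 and 1 without untreated trans/mdx replicate 2. The difference between backgrounds gave 2 with all 20 libraries and 0 to 1 with 1 library left out (transgenic replicate 2 or either untreated trans/mdx library), and muscle minus heart 0 to 4, the 4 without muscle wild-type replicate 2 and 1 without heart treated trans/mdx replicate 2 or mdx replicate 2. The count of 19 matrix genes was 9 of 13 tested among genes averaging 5 FPKM or more, 10 to 20 with 1 library left out and 10 with quantile normalization without wild-type replicate 2, a setting chosen after seeing the data. Over all genes 140 of 2398 were lower in the first of these settings and 293 of 8763 in the last. For the library measures the differences with 1 library left out ranged from -13130 to 10920 for the FPKM sum, from -572.3 to 5 for genes at 1 FPKM or more, from -0.96 to 3.0 for the percentage of Lars2 and from 3.18 to 4.5 percentage points for the mitochondrial share, the first 3 changing sign without wild-type replicate 2 alone. The exact permutation p of the mitochondrial share then ranged from 0.00794 to 0.0357, before any adjustment over the 4 measures. Over 1178 refits of 58 named genes, 1147 kept their direction and side of the threshold, 13 newly passed it, 2 were at 0 (mt-Nd1 under both quantile settings) and 16 changed sign, all of these 16 in Dmd, Utrn and mt-Nd2 and none with an adjusted p under 0.05. Dmd was at 0.0426 with quantile normalization, 0.06256 with median-of-ratios scaling, 0.151 with quantile normalization without wild-type replicate 2 and -0.338 to 0.176 with 1 library left out. Utrn was at 0.105, 0.103, 0.0958 and -0.128 to 0.0962 in the same settings and at 0.05001 with carriers without UAA only. mt-Nd2 was at -0.0108 with quantile normalization and at -0.0090 with it and without wild-type replicate 2. The cause of these changes was not tested. With replicate number as a replicate block the count was 0 in all 5 tests; in muscle, same-numbered libraries of the 10 pairs of groups did not deviate together (r from -0.05 to 0.04), so the numbers do not pair the mice. With 2 mice per group and 1970000 to 2530000 implied fragments per muscle library, genes near 1 FPKM could not be resolved at this depth.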
